A study of Mus musculus with 18 samples.

Results

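The cytosolic ribosomal protein genes were followed across liver and intestinal epithelium of transplanted mice. Members were the protein-coding genes of the count table whose symbols were Rpl or Rps followed by a number, with an a, x, y or l where present, together with Rplp0, Rplp1, Rplp2 and Rpsa. The rule took 80 of 53379 genes, of which 49 belong to the large and 31 to the small ribosomal subunit. It left out 3 symbols of the same form that are annotated as pseudogenes (Rpl6l, Rpl32l and Rps4l), and it did not reach Rps3a1, Fau and Rpl36al, which also encode ribosomal proteins under other forms of name.

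All hosts were lethally irradiated female BALB/cJ mice, 6 to 8 weeks old. The BMT group received 10000000 bone marrow cells with 1000000 T cells, and the BM group received 10000000 bone marrow cells alone, so irradiation and marrow were common to both. Tissue was taken on day 7, and polyA-selected RNA was sequenced from bulk liver and from isolated epithelium of the small and the large intestine, with 3 libraries in each group of each tissue. The design text states the comparison of BMT with BM recipients in these tissues, and the sources used here do not name the donors' strain.

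Each library held 18845483 to 25610937 counts. The library names carry 6 mouse numbers (6, 9 and 10 for BMT, and 2, 4 and 5 for BM) that repeat in every tissue, but the labels do not say that these are separate animals, and p-values then cover only how far these samples vary, which may be technical. The intestinal labels were in conflict, since the libraries coded SI in their names are titled large intestine and those coded LI are titled small intestine. The ileal gene Fabp6 stood at 1184 to 9995 CPM (the gene's counts scaled to a common library total) in the code SI libraries and at 0.853 to 11.9 CPM in the code LI libraries. The posterior homeobox gene Hoxb13 was listed at 0 in all code SI libraries and stood at 41.9 to 170 CPM in the code LI libraries. Both sets are called by their code, and neither is given a region name. In liver, Alb, the albumin gene of hepatocytes, stood at 84709 to 145271 CPM.

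Ribosomal proteins assemble with ribosomal RNA in the nucleolus into the subunits that translate messenger RNA. Their genes are among the most strongly transcribed of a cell, and their transcripts begin with a run of pyrimidines, the TOP motif, through which growth signals that pass through mTOR set how much of them is translated. Intestinal epithelium renews itself by constant division in the crypts and is a tissue of high ribosome demand, while most hepatocytes divide rarely.

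Promoters are shown for the genes on which the comparisons turn, because Rps27 and Rps27l are a pair of related genes that gave different results, and because Rpl13a and Rpsa were called in the same direction. Each is a RefSeq window of 300 bases on GRCm38.p6, from 250 bases before the annotated start to 50 after it, written 5′ to 3′ on the gene's strand. Capitals mark the ETS core CGGAAG, which reads as CTTCCG on the opposite strand. Capitals also mark CTTTC on the sense strand between 10 bases before and 20 after the start, where the stretches CTTCC and, in the same search, CTTTT were also looked for. Half-sites of p53, searched by name on both strands, are in capitals as well. The ETS core on the opposite strand contains the second of these stretches.
Rps27, chr3:90213599-90213898, minus strand: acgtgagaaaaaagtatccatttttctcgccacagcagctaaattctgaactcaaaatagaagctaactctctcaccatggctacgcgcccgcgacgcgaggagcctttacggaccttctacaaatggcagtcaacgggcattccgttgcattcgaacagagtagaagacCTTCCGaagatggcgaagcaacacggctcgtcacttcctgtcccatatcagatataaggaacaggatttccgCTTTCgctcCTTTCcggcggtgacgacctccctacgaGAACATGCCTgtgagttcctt
Rps27l first start, chr9:66945836-66946135, plus strand: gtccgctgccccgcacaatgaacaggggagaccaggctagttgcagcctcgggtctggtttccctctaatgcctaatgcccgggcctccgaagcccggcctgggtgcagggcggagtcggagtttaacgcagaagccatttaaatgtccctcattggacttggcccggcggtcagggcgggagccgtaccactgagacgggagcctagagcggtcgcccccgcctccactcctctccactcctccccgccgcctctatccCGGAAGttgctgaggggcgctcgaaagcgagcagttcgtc
Rps27l second start, chr9:66946163-66946462, plus strand: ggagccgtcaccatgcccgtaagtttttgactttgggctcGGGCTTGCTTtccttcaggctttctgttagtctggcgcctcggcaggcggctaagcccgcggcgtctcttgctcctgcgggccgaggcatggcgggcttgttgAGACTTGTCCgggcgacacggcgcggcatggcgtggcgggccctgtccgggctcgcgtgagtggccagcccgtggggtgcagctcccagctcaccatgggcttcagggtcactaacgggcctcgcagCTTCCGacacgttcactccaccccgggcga
Rpl13a, chr7:45128696-45128995, minus strand: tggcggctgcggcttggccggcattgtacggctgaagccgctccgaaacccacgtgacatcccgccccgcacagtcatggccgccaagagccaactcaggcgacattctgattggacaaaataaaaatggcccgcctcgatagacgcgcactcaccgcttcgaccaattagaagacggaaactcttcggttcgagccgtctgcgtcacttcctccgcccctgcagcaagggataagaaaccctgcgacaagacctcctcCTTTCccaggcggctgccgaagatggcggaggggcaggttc
Rpsa, chr9:120127516-120127815, plus strand: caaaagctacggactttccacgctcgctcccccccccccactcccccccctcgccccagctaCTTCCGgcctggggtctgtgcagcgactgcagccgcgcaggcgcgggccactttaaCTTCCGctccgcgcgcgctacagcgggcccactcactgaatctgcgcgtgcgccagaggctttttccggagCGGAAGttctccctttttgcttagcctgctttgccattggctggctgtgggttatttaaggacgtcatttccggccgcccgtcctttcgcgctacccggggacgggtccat
RefSeq windows were matched for 60 of the 80 members (72 windows). The ETS core was present in 41 of the 60 (68.3%), against 24.2% of 16504 protein-coding genes of the table with windows of the same length. The pyrimidine stretch at the start was present in 25 of the 60 (41.7%), against 14.3% of those genes. ATGGCG on either strand, the core of sites of the factor YY1, was present in 31.7% of members and 12.7% of those genes, and TATAAA on either strand in 10% of members and 14.3%. A p53 half-site was found in 8.33% of members and 8.45% of those genes, and the second Rps27l window held 2 of them. A half-site is also marked in the Rps27 window, and none is marked in the first Rps27l window. These letters are a description of the windows and do not show that a factor binds there.

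The members' share of all counts was 1.17 to 1.22% in BMT livers and 1.29 to 1.41% in BM livers. In code SI libraries it was 2.92 to 4.66% in BMT and 4.26 to 5.01% in BM, and in code LI libraries 3.35 to 4.06% in BMT and 3.35 to 3.77% in BM. The values of the summed members by library were as follows. BMT livers of mice 6, 9 and 10 held 11716, 12218 and 11725 CPM, against 14092, 12940 and 14118 CPM in BM livers of mice 2, 4 and 5. All 3 BMT livers were below all 3 BM livers, with a ratio of the means of 0.867. Code SI libraries held 43117, 46645 and 29171 CPM in BMT mice 6, 9 and 10, against 50141, 45789 and 42640 CPM in BM mice 2, 4 and 5. The groups overlapped, the library of BMT mouse 10 was the lowest, and the ratio was 0.858 with it and 0.972 without it. Code LI libraries held 35532, 40583 and 33517 CPM in BMT mice and 33467, 37668 and 35440 CPM in BM mice, which overlapped, with a ratio of 1.03. No test was made on these sums. Since the tissues were measured in bulk, fewer cells of a type and less RNA per cell cannot be told apart. Mitochondrial transcripts took a smaller share of counts in BMT than in BM libraries (2.77 to 3.08% and 4.22 to 5.26% in liver, 4.83 to 6.01% and 7.30 to 8.63% in code SI, 6.24 to 7.46% and 9.72 to 10.7% in code LI), and without them in the total the ratios were 0.849, 0.834 and 0.993.

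**Figure D1:**
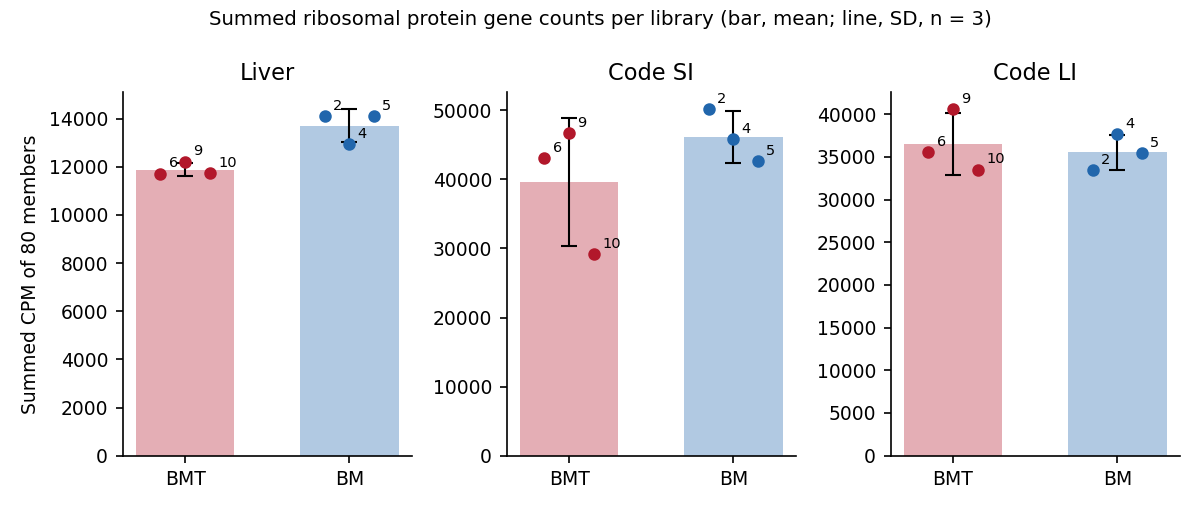
Summed CPM of the 80 members (y axis, linear from 0) in each library, with BMT left of BM in liver, code SI and code LI. Points are libraries with their mouse numbers, bars the means and lines the SD (n = 3). The 3 BMT livers (11716 to 12218 CPM) lie below the 3 BM livers (12940 to 14118 CPM), and the code SI library of BMT mouse 10 stands at 29171 CPM, below the other 5 of its tissue.

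The sum held both subunits in near constant proportion. The ratio of large to small subunit CPM was 1.378 ± 0.019 in BMT livers and 1.366 ± 0.019 in BM livers (SD, n = 3), and 1.336 ± 0.008 in BMT and 1.345 ± 0.021 in BM libraries of code LI. In code SI it was 1.325, 1.293 and 1.309 in BMT mice 6, 9 and 10, and 1.247, 1.275 and 1.285 in BM mice 2, 4 and 5. These groups did not overlap, with a difference of 3.15% between the means, and the mouse 10 library did not stand apart in this ratio as it did in the sum. That library held the lowest CPM of its tissue for 74 of 77 members.

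Expression per gene spanned a wide range. The gene length given with the counts joins all exons of a gene. It was 499 bases for Rplp1, as was its transcript with the longest coding part, but 2027 bases for Rps12 against a transcript of 460. The order below holds for that length only, and an order by transcript length was not made. On CPM divided by gene length and brought to the same total in every library, Rplp1 was the most abundant member in each tissue, with 1368 ± 143 in BMT and 1363 ± 59.2 in BM livers, 4678 ± 1021 in BMT and 3702 ± 600 in BM of code SI, and 3942 ± 816 in BMT and 3686 ± 1023 in BM of code LI (SD, n = 3). It encodes an acidic protein of the ribosomal stalk, where elongation factors dock. Rps15 followed in each tissue (mean over all 18 libraries 1952), and then Rpl17, Rpl8 and Rpl4 with means over all libraries of 1725, 1701 and 1437. Below Rps15 the order differed by tissue, since Rps29 stood above Rpl8 and Rpl4 in liver, Rpl32 above Rpl4 in code SI, and Rpl8 above Rpl17 in code LI. In code SI of BMT mice each of these 4 differed from the next by less than the larger of their SDs, while Rplp1 stood further above Rps15 than either SD. The lowest of the tested members on this scale were Rpl35a, Rpl13a and Rpl24, with means over all libraries of 58.2, 31.2 and 4.83. Rpl35a was divided by 3526 bases, where its transcript holds 491. It shares stretches of 100 identical bases with 12 other genes, and Rpl13a with 2, whose counts are left out as well. For Rpl24 this level leaves out 4 copies that held 82.5 to 83.8% of the summed counts, of which Gm28037 overlaps 47% of its exon bases.

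The 3 remaining members are the tissue-restricted copies. Rpl10l, the testis copy of Rpl10, had no count in any library, which allows at most 3 counts or 0.117 to 0.159 CPM. Rpl39l, the testis copy of Rpl39, reached at most 0.0895 CPM, and Rpl3l, the striated muscle copy of Rpl3, at most 0.330 CPM. Their parents stood at 332 to 370 CPM in BMT and 411 to 461 CPM in BM livers (Rpl10), at 47.6 to 51.9 CPM in BMT and 59.1 to 63.9 CPM in BM livers (Rpl39) and at 201 to 237 CPM in BMT and 218 to 246 CPM in BM livers (Rpl3). These copies were not tested, and 77 of the 80 members passed the expression filter in each tissue.

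The counts of many members are uncertain because near-identical copies exist. Stretches of 100 bases identical to another gene's transcript occurred in 71 of the 80 members (median 34.5% of positions, over 50% in 30 members), and 296 genes of the table are annotated as ribosomal protein pseudogenes. The sources used here do not state how reads that match several places were counted, nor the strand setting. The annotated pseudogenes held 1.383 to 1.497% of the summed member CPM in BMT and 1.57 to 1.78% in BM livers, 1.54 to 1.75% in BMT and 1.37 to 1.59% in BM of code SI, and 1.49 to 1.66% in BMT and 1.36 to 1.59% in BM of code LI. These shares do not cover all of the 435 genes whose counts were added as copies in an alternative, since in code LI the 2 copies of Rplp0 alone stood at 597 CPM in BMT and 530 CPM in BM libraries.

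Between BMT and BM livers no difference was detected for most members, and the single fall was in Rps27l. Of 77 members tested, 1 was higher and 1 lower at an adjusted p of up to 0.05 (quasi-likelihood test of edgeR, Benjamini-Hochberg adjusted over all genes tested), where 10.8% of genes were called, 7.46% of 14134 higher and 3.35% lower. The median log2 fold change of the members was -0.03, that of all genes tested -0.02 and that of genes with a mean over 100 CPM -0.14. TMM factors were 0.883 to 0.995 in BMT and 1.015 to 1.148 in BM livers, and on total counts without them the median of the members was -0.21 and that of all genes -0.20. On plain CPM, 46 of 77 members were lower in all 3 BMT livers than in any BM liver and 2 were higher, against 28.0% and 11.2% of all genes tested.

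Rps27l encodes a near copy of the small subunit protein of Rps27 and is known as a target of p53 in human and mouse cells. It stood at 89.6, 93.3 and 97.0 CPM in BMT livers of mice 6, 9 and 10, against 183, 156 and 192 CPM in BM livers of mice 2, 4 and 5. Every BMT liver was lower than every BM liver, and the spread within each group was small beside the gap. Its log2 fold change was -0.75 ± 0.13 (SE, edgeR adjusted p = 0.0102). The call was lost without the BMT liver of mouse 9 (adjusted p = 0.0601, range over 13 alternatives 4.4e-06 to 0.0601), while the log2 fold change stayed between -0.92 and -0.69. No other gene's transcript held 100 identical bases. Rps27 itself stood at 142, 149 and 137 CPM in BMT livers and 172, 164 and 177 CPM in BM livers, with a log2 fold change of -0.08 ± 0.13 (adjusted p = 0.727).

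Rpl29, a small basic protein of the large subunit, was the member called higher. It stood at 24.8, 22.7 and 21.1 CPM in BMT livers, against 17.96, 14.05 and 19.02 CPM in BM livers. The groups did not overlap but lay close together, and the log2 fold change was 0.61 ± 0.16 (edgeR adjusted p = 0.0485). The call was lost in 8 of 13 alternatives (adjusted p 0.0195 to 0.314), among them the sum with its copies, where the log2 fold change was 0.21. In 24 genes that share its sequence lay 48.2% of the summed counts in liver.

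None of the 3 stalk genes passed the test in liver. Rplp0, the stalk base, stood at 176, 185 and 172 CPM in BMT livers and 163, 149 and 167 CPM in BM livers, which did not overlap (log2 fold change 0.34 ± 0.13, edgeR adjusted p = 0.147). Rplp2 gave 0.34 ± 0.14 (adjusted p = 0.179) and Rplp1 0.18 ± 0.13 (adjusted p = 0.433). On plain CPM the groups of both overlapped, with 125 ± 17.4 in BMT and 112 ± 21.9 in BM livers for Rplp2 and 291.9 ± 29.8 in BMT and 291.7 ± 13.9 in BM livers for Rplp1 (SD, n = 3). Rps6, whose protein is the target of S6 kinases, gave 0.02 ± 0.17, and Rpsa, the laminin receptor and small subunit protein, gave 0.00 ± 0.13. Rpl5 and Rpl11, whose free proteins bind Mdm2, gave -0.06 ± 0.15 and -0.10 ± 0.14, and Rps27a, a fusion with ubiquitin, gave -0.08 ± 0.17. None of these passed the test.

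**Figure D2:**
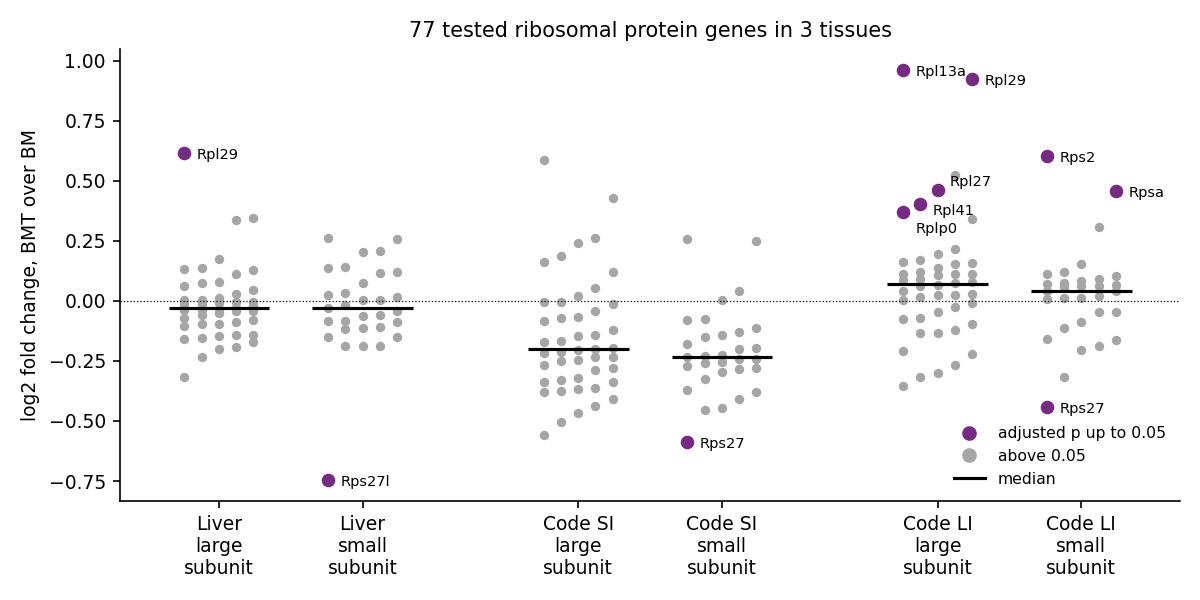
Log2 fold change of BMT over BM (y axis) for the 77 tested members, by tissue and subunit. Each point is a gene, purple points passed an adjusted p of 0.05 and lines are medians. Liver medians lie near 0, most code SI members lie below 0 with a median of -0.22, and the code LI calls are 7 higher and 1 lower.

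In code SI libraries the members leaned lower in BMT mice, and 1 of them passed the test. Of 77 members 64 had a negative log2 fold change, as had 7022 of all 14621 genes tested. The median of the members was -0.22, against 0.02 for all genes tested and 0.16 for genes with a mean over 100 CPM. None was called higher and 1 lower, where 23.4% of genes were called, 11.6% of 14621 higher and 11.8% lower. On plain CPM no member was higher in all 3 BMT libraries than in any BM library and 12 were lower, against 16.3% and 22.9% of genes. At an unadjusted p under 0.05 in the edgeR test, 2 of 77 members were higher and 6 lower, beside 2654 and 2591 of 14621 genes. Without the code SI library of BMT mouse 10 the median was -0.05, 2 members were called higher and none lower.

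Rps27, a zinc finger protein of the small subunit, was the member called lower in code SI. It stood at 413, 485 and 322 CPM in BMT mice 6, 9 and 10, against 706, 655 and 521 CPM in BM mice 2, 4 and 5. The groups did not overlap, with every BMT library lower. The log2 fold change was -0.59 ± 0.19 (edgeR adjusted p = 0.043), and leaving out 1 library lost the call in 4 of 6 cases (mice 6 and 10 of BMT, 2 and 4 of BM), with adjusted p of 0.0079 to 0.15 over 12 alternatives and log2 fold changes of -0.73 to -0.46. Its near-identical copy Rps27rt held 0.614% of the summed counts of the pair in code SI. Of the 100-base stretches of Rps27, 98.4% occur in transcripts of 2 other genes. Since the counting of reads with several matches is not stated, the low share of Rps27rt does not show that copies leave the Rps27 counts untouched.

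The member with the opposite value was Rpl13a, a large subunit protein that is also known as a translational silencer in human monocytes. It stood at 48.7, 53.2 and 29.7 CPM in BMT mice and 32.6, 28.4 and 28.7 CPM in BM mice of code SI. The library of mouse 10 lay among the BM values and the other 2 above them. Its log2 fold change was 0.59 ± 0.20 (edgeR adjusted p = 0.0599), and without that library 0.78 (adjusted p = 0.00662, range over 12 alternatives 0.00662 to 0.193). Rpl29 gave 0.43 ± 0.17 (adjusted p = 0.0868), and Rpl17, one of the most abundant members per gene length, -0.51 ± 0.18 (adjusted p = 0.0668).

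In code LI libraries 7 members were higher and 1 lower in BMT mice, with most of the list near 0. Of 14880 genes 41.4% were called, 20.4% higher and 21% lower, so the members were called in smaller shares than the genes at large. Their median was 0.06, against 0.00 for all genes tested and 0.08 for genes with a mean over 100 CPM. On plain CPM 9 members lay above and 2 below without overlap, against 25.2% and 28.3% of genes. The calls comprised Rpl13a, Rpl29, Rps2, Rpl27, Rpsa, Rpl41 and Rplp0 on the higher side and Rps27 on the lower, and Rpl41, which encodes the shortest of the ribosomal proteins, was added to the named genes after its values were seen.

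Rpl13a stood at 41.6, 47.2 and 40.3 CPM in BMT mice 6, 9 and 10 of code LI, against 19.4, 21.3 and 25.9 CPM in BM mice 2, 4 and 5. Every BMT library was well above every BM library, and the log2 fold change was 0.96 ± 0.15 (edgeR adjusted p = 0.000547). Its 2 copies, Gm11478 and Gm45713, held 46.0% of the summed counts and stood at 33.8 ± 0.724 CPM in BMT and 21.8 ± 2.43 CPM in BM libraries (SD, n = 3), and Gm45713 overlaps its exons on the same strand. Rpl29 stood at 88.0, 87.9 and 68.1 CPM in BMT and 39.5, 45.4 and 44.1 CPM in BM libraries. Its groups did not overlap either, and the log2 fold change was 0.92 ± 0.13 (adjusted p = 0.000296), or 0.61 with the counts of its copies added. The third of the strong rises was Rps2, a small subunit protein at the entry of the messenger channel, with 610, 657 and 587 CPM in BMT and 391, 427 and 408 CPM in BM libraries. BMT values lay above BM values throughout, with a log2 fold change of 0.60 ± 0.12 (adjusted p = 0.00233). These 3 genes were called in all 12 alternatives.

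The other rises were smaller. Rpsa stood at 1528, 1775 and 1499 CPM in BMT and 1130, 1209 and 1178 CPM in BM libraries of code LI, which did not overlap (log2 fold change 0.46 ± 0.12, edgeR adjusted p = 0.0135). Rpl27, a large subunit protein, stood at 211, 241 and 212 CPM in BMT and 161, 174 and 150 CPM in BM libraries (0.46 ± 0.12, adjusted p = 0.0123). Both lost the call without the BM library of mouse 2, at adjusted p of 0.0619 and 0.0568, where 3 members remained called higher. Rpl41 (0.40 ± 0.13, adjusted p = 0.0332) and Rplp0 (0.37 ± 0.13, adjusted p = 0.0376) lost it in 5 and 6 of 12 alternatives, with adjusted p of 0.00908 to 0.103 and 0.009 to 0.12. The copies of Rplp0 held 39.6% of the summed counts, and with them added it was no longer called.

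Rps27 fell in code LI as well. It stood at 357, 400 and 354 CPM in BMT mice, against 421, 566 and 527 CPM in BM mice, and the groups did not overlap. The log2 fold change was -0.44 ± 0.14 (edgeR adjusted p = 0.0324), lost in 4 of 12 alternatives (adjusted p 0.0163 to 0.151). Rps27l had the opposite sign in both intestinal sets, with 164, 186 and 138 CPM in BMT and 166, 133 and 120 CPM in BM libraries of code SI, and 124, 137 and 122 CPM in BMT and 96.5, 103 and 111 CPM in BM libraries of code LI. The groups overlapped in code SI and not in code LI, and neither value passed the test (0.26 ± 0.17, adjusted p = 0.32, and 0.31 ± 0.12, adjusted p = 0.0615).

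**Figure D3:**
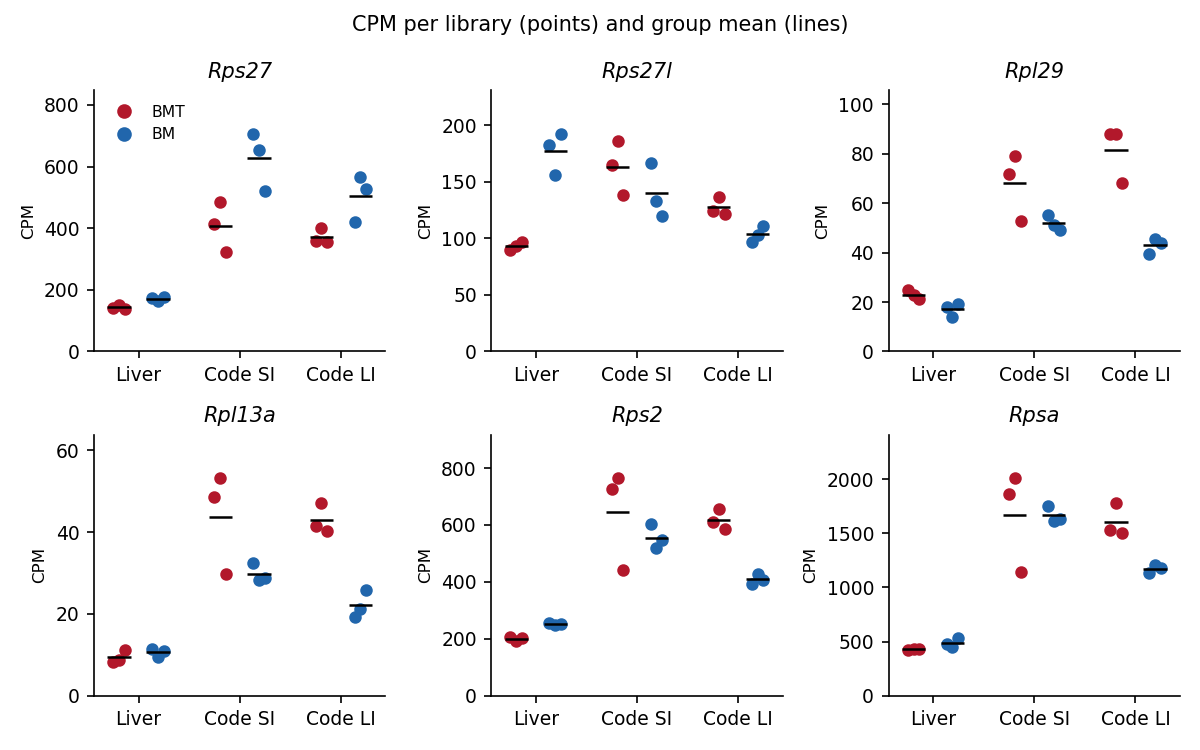
CPM per library (y axis, linear from 0) of 6 members in liver, code SI and code LI, with BMT points left of BM points and lines at group means (n = 3). Rps27l is lower in BMT than in BM livers (89.6 to 97.0 against 156 to 192 CPM) and not in the intestinal sets, while Rpl13a, Rpl29, Rps2 and Rpsa of code LI are higher in every BMT library.

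Not all abundant members moved together in code LI. Rpl5 gave -0.35 ± 0.14 (edgeR adjusted p = 0.0736), with 497, 537 and 365 CPM in BMT and 547, 626 and 615 CPM in BM libraries, and these did not overlap. Rpl11, which acts with Rpl5, gave 0.16 ± 0.13 (adjusted p = 0.368). Rps6 gave 0.04 ± 0.12 and Rps27a 0.02 ± 0.15. The stalk genes Rplp1 and Rplp2 varied more between replicates than between groups. Rplp1 stood at 581, 890 and 823 CPM in BMT and 791, 869 and 484 CPM in BM libraries. The BMT library of mouse 6 and the BM library of mouse 5 were low in Rplp1, and both were also low in Rplp2 (303 and 265 CPM, where the other 4 held 407 to 476 CPM).

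Spread within groups differed by tissue. The median coefficient of variation over the 77 members was 4.55% in BMT and 7.16% in BM livers, 23.2% in BMT and 9.18% in BM of code SI, and 10.9% in BMT and 9.43% in BM of code LI (n = 3 each). Rpl24, the scarcest tested member, was among the most variable in BMT groups, at 20, 33.1 and 31.4% in liver, code SI and code LI. In code LI of BM mice Rpl36, Rplp1 and Rplp2 led, at 32.7, 28.5 and 25.7%.

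The size of the BMT effect was then compared between tissues within 1 model of 18 libraries with the mouse as a block. Rps27l differed between liver and each intestinal set. The effect in liver minus that in code SI was -0.9996 ± 0.21 (edgeR adjusted p = 0.00581), and the effect in liver minus that in code LI was -1.01 ± 0.21 (adjusted p = 0.00407). Both calls held in all 10 alternatives (adjusted p up to 0.0401 and 0.0235). It was the single member called between liver and code SI, where 15% of 17275 genes were called, 8.67% higher and 6.32% lower. Between liver and code LI, where 18.8% of genes were called, 10.6% higher and 8.13% lower, Rpl13a also passed, with -0.92 ± 0.27 (adjusted p = 0.0262), which was lost without mouse 2, 4, 6 or 9 (adjusted p 0.011 to 0.104 over 10 alternatives). Rps2 followed with -0.72 ± 0.24 (adjusted p = 0.0534).

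Rpl27 was next between liver and code LI, with -0.44 ± 0.21 (edgeR adjusted p = 0.166). Between liver and code SI the next smallest p-values were those of the small subunit genes Rps28 (0.53 ± 0.21, adjusted p = 0.0993), Rps18 (0.56 ± 0.22, adjusted p = 0.102) and Rps15a (0.55 ± 0.24, adjusted p = 0.143). Between code SI and code LI no member was called by edgeR, where 4.91% of 17275 genes were (2.40% higher and 2.51% lower). At an unadjusted p under 0.05 in that test 2 members passed, both lower, beside 1908 genes higher and 1633 lower. The median difference of the effects was -0.22 in the members, negative for 72 of 77. For all genes it was 0.01, negative for 8496 of 17275. The median of the members was -0.07 without mouse 2, -0.12 without mouse 10 and -0.31 without mouse 5. The smallest p-values were those of Rpl24 (-1.02 ± 0.39, adjusted p = 0.15), Rpl29 (-0.47 ± 0.20, adjusted p = 0.192), Rps19, a small subunit gene mutated in human Diamond-Blackfan anaemia (-0.45 ± 0.23, adjusted p = 0.281), and Rpl35 (-0.36 ± 0.22, adjusted p = 0.374). Copies of Rpl24 held 82.6% of the summed counts in code SI and 83.8% in code LI, and with them added its log2 fold change was -0.20 in code SI and 0.17 in code LI.

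Most members were lower in liver than in either intestinal set. The tissue differences of BM mice were taken from the model of 18 libraries, so BMT libraries also entered its scaling and its estimate of spread. In BM mice 74 of 77 members were lower and 1 higher in liver than in code SI, with a median log2 difference of -0.98 (69% of 17275 genes were called, 33.7% lower and 35.3% higher). In liver against code LI 65 were lower and 1 higher, with a median of -0.65 (67.7% of genes were called, 33.8% lower and 33.9% higher), and 42 were lower without mouse 4. The 1 gene higher in liver was Rps27l in both, by 1.08 ± 0.15 (edgeR adjusted p = 1.24e-05) and 1.48 ± 0.15 (adjusted p = 4.54e-07). Its 183, 156 and 192 CPM in BM livers stood against 166, 133 and 120 CPM in code SI and 96.5, 103 and 111 CPM in code LI of the same mice. Rplp0 was at the other end, with 163, 149 and 167 CPM in BM livers, 1009, 961 and 931 CPM in code SI and 747, 783 and 726 CPM in code LI, and log2 differences of -1.86 ± 0.18 and -1.52 ± 0.18 (adjusted p = 2.05e-07 and 1.82e-06).

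These tissue differences depended on scaling in size. On total counts the median over all genes in liver against code LI moved to -0.72 and that of the members to -1.36, and Rps27l of liver against code SI was no longer called (0.34, adjusted p = 0.0587). The gap between the members and all genes was close to that with TMM factors. Within mice, summed member CPM in code SI was 3.68, 3.82 and 2.49 times that of liver in BMT mice 6, 9 and 10, and 3.56, 3.54 and 3.02 times in BM mice 2, 4 and 5. In code LI it was 3.03, 3.32 and 2.86 times in BMT and 2.37, 2.91 and 2.51 times in BM mice.

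Between the intestinal sets fewer members were called. In BM mice 12 members were higher and none lower in code SI than in code LI, with a median of 0.36, where 27.1% of 17275 genes were called, 13.1% higher and 14.0% lower. The largest among those called were Rps12 (0.57 ± 0.17, edgeR adjusted p = 0.0202), Rpl35 (0.56 ± 0.15, adjusted p = 0.0129) and Rpl12 (0.55 ± 0.17, adjusted p = 0.0258), and Rps12 and Rpl12 were named after their values were seen. Without mouse 2 or mouse 4 no member was called, with medians of 0.22 and 0.41. Without mouse 10, a BMT mouse of the same model, 18 members were called higher. In BM mice 2, 4 and 5 the summed CPM of code SI was 1.5, 1.22 and 1.2 times that of code LI.

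**Figure D4:**
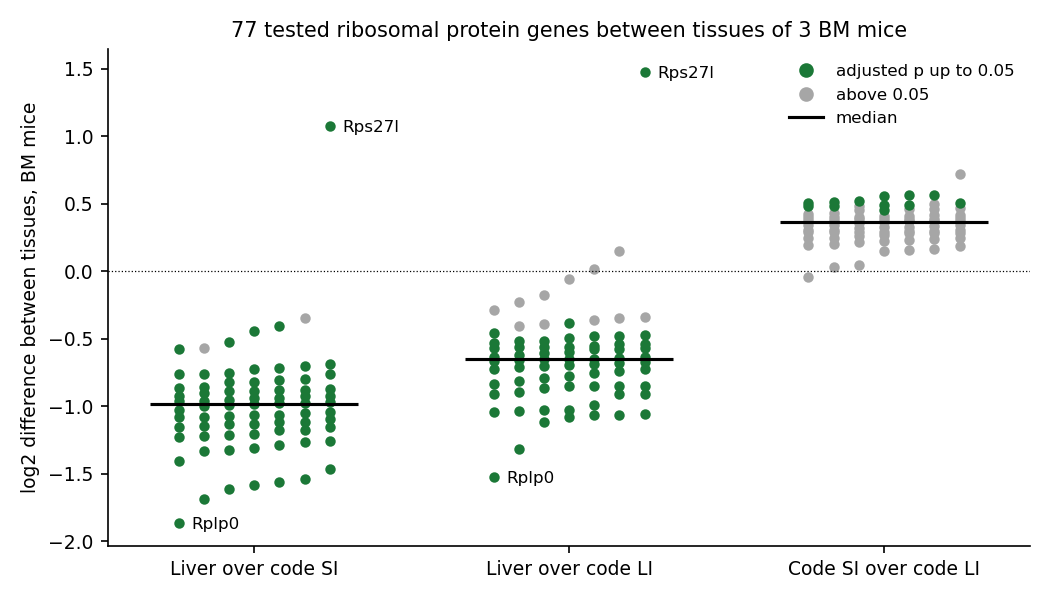
Log2 difference between tissues in BM mice (y axis) for the 77 tested members, with liver over code SI, liver over code LI and code SI over code LI from left to right. Values and calls come from the model of all 18 libraries. Green points passed an adjusted p of 0.05 and lines are medians (-0.98, -0.65 and 0.36). Rps27l alone among the called members lies above 0 in both liver comparisons.

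Among genes that build the ribosome, many were called higher in code LI. Of 69 factors of ribosome assembly 38 were higher and 1 lower in BMT mice, with a median log2 fold change of 0.50, beside the 20.4% and 21% of all genes. Nhp2, a protein of the small nucleolar particles that guide RNA modification, stood at 85.3, 106 and 76.1 CPM in BMT and 40.3, 40.7 and 36.7 CPM in BM libraries. All BMT values were above all BM values (1.19 ± 0.14, edgeR adjusted p = 6.53e-05). The 1 fall was Utp20, a component of the small subunit processome, with 53.1, 60.4 and 41.4 CPM in BMT and 141, 113 and 129 CPM in BM libraries. It ran against the rest of its list without overlap (-1.31 ± 0.14, adjusted p = 4.94e-05). Leaving out 1 library gave 23 (without BM mouse 4) to 54 (without BMT mouse 10) assembly genes called higher.

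For the other lists around translation in code LI, the counts are read beside the 20.4% of all genes called higher and 21% lower. Of 17 genes of rRNA transcription 4 were higher and none lower (Rrn3 0.47 ± 0.14 and Polr2f 0.52 ± 0.16, edgeR adjusted p = 0.0175 and 0.023), and of 25 initiation factors outside the TOP list 10 were higher and 1 lower (Eif3b 0.74 ± 0.12, Eif2s2 0.97 ± 0.16, adjusted p = 0.000536 and 0.000735). Of 21 other genes with TOP transcripts 4 were higher and none lower (Eef1d 0.55 ± 0.12, Hnrnpa1 0.70 ± 0.17, adjusted p = 0.0041 and 0.00874), with a median of 0.00. Of 77 mitochondrial ribosomal proteins, which are translated in the cytosol and serve the mitochondrial ribosome, 5 were higher and 1 lower (Mrpl20 0.65 ± 0.12, Mrps7 0.52 ± 0.12, adjusted p = 0.00171 and 0.00642). Of 21 growth regulators tested 6 were higher and 1 lower, led by Eif4ebp1, an inhibitor of cap-dependent initiation (1.54 ± 0.16, adjusted p = 3.61e-05). Leaving out 1 library gave 0 (without BMT mouse 9 or BM mouse 2) to 7 (without BMT mouse 10) rRNA transcription genes higher, 7 to 14 initiation factors, 2 to 6 TOP genes and 2 to 9 mitochondrial ribosomal proteins.

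In code SI, where 11.6% of all genes were called higher and 11.8% lower, 1 of 69 assembly genes was higher and none lower (Eif6, which keeps the subunits apart, 0.54 ± 0.17, edgeR adjusted p = 0.0402), and 13 were higher without the library of BMT mouse 10. None of the 17 rRNA transcription genes was called there, 2 of 25 initiation factors were higher (Eif2s2 1.09 ± 0.19, Eif2s3x 0.58 ± 0.19, adjusted p = 0.00185 and 0.0443), and of the TOP list Nap1l1 was higher and Eif3f lower (0.95 ± 0.26 and -0.54 ± 0.17, adjusted p = 0.0225 and 0.0418). Of 77 mitochondrial ribosomal proteins 4 were higher and 1 lower (Mrps36 0.73 ± 0.15, Mrpl20 0.88 ± 0.20), and of 22 growth regulators 5 were higher and 3 lower (Mycl -1.08 ± 0.18, Eif4ebp1 1.16 ± 0.22). Leaving out 1 library gave 1 to 7 initiation factors higher, 2 to 10 mitochondrial ribosomal proteins higher (10 without BMT mouse 10), and 2 to 6 growth regulators higher and 1 to 3 lower (2 and 1 without BM mouse 4).

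In liver 8 of 77 mitochondrial ribosomal proteins were lower and none higher, with a median of -0.32, beside 3.35% of all genes called lower and 7.46% higher. Mrps35, of the mitochondrial small subunit, stood at 17.3, 16.5 and 20.4 CPM in BMT and 33.4, 34.5 and 36.3 CPM in BM livers, and the groups did not overlap (-0.77 ± 0.12, edgeR adjusted p = 0.00752). Mrpl14, of its large subunit, followed with -0.70 ± 0.12 (adjusted p = 0.0117). Leaving out 1 library gave 1 (without BMT mouse 9) to 12 (without BM mouse 5) of them called lower. Of the assembly genes Gnl3 was lower (-0.48 ± 0.12, adjusted p = 0.0488) and none higher, of the initiation factors Eif4a2 was lower (-0.76 ± 0.16, adjusted p = 0.0233), and no rRNA transcription or TOP gene was called. Of 21 growth regulators 2 were higher, Ddit4 (2.31 ± 0.41, adjusted p = 0.0121) and Mxd1 (1.08 ± 0.22, adjusted p = 0.0214), and 0 without BMT mouse 9.

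**Figure D5:**
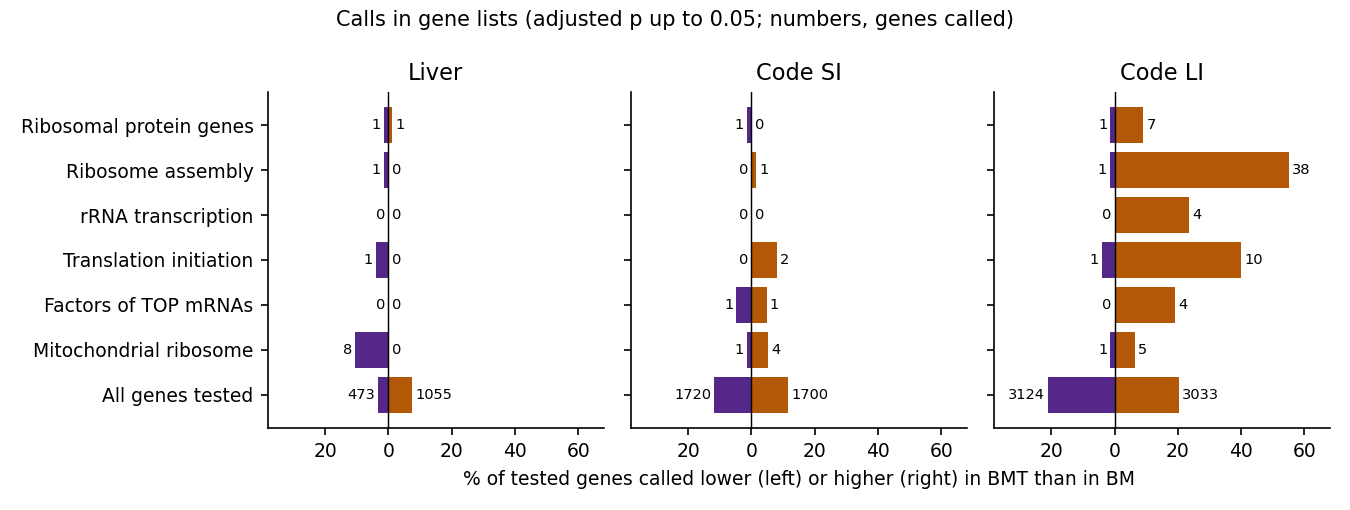
Percent of the tested genes of each list called lower (bars to the left) or higher (bars to the right) in BMT than in BM, in liver, code SI and code LI, with the number of genes at each bar. In code LI 38 of 69 assembly genes are called higher and 7 of 77 ribosomal protein genes, where 20.4% of all genes are.

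Markers of other cells moved with the groups, though not in every tissue. All 14 T cell markers were higher in each tissue, with summed levels of 76.6 to 80.6 CPM in BMT and 6.20 to 9.65 CPM in BM livers, 220 to 327 CPM in BMT and 4.39 to 14.1 CPM in BM of code SI, and 421 to 665 CPM in BMT and 7.08 to 9.18 CPM in BM of code LI, and none at 0 throughout. Neutrophil markers summed to 130 to 552 CPM in BMT and 12.6 to 18.6 CPM in BM livers (11 of 11 higher), 5.19 to 17.9 CPM in BMT and 0.767 to 2.14 CPM in BM of code SI (1 of 3 tested), and 662 to 1391 CPM in BMT and 71.36 to 78.99 CPM in BM of code LI (3 of 3 tested). In BM mice the 11 neutrophil markers had a median log2 difference of 0.55 for code SI over code LI, and a minimum of -7.92. The code LI sums thus do not stand for all 11. Macrophage markers summed to 441 to 463 CPM in BMT and 225 to 371 CPM in BM livers (3 of 9 higher). In code SI their sums overlapped, at 4.46 to 10.4 CPM in BMT and 3.94 to 7.0 CPM in BM, and 0 of 3 tested were called. In code LI they stood at 19.6 to 71.3 CPM in BMT and 3.19 to 4.49 CPM in BM (3 of 3 tested, with 4 of 9 at 0 throughout). Erythroid markers ran lower, at 9.86 to 37.6 CPM in BMT and 91.9 to 123 CPM in BM livers (5 of 6 tested). So did they in code SI, at 0.42 to 2.53 CPM in BMT and 4.75 to 30 CPM in BM (3 of 3 tested). In code LI their sums overlapped (0.62 to 1.35 and 0.98 to 6.21 CPM). Sums of B and plasma cell markers overlapped in liver. They were lower in BMT than in BM of code SI (196 to 236 and 304 to 326 CPM) and code LI (147 to 192 and 210 to 241 CPM). Of the 8 markers 3 were tested in code SI and 2 in code LI, with 1 called higher and 1 lower in each. Their log2 fold changes ran from -0.53 to 2.44 in code SI and from -0.49 to 4.69 in code LI. The lower sums thus do not stand for the markers as a group.

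Proliferation markers were higher for 10, 5 and 15 of 16 genes in liver, code SI and code LI, and none was lower. They summed to 99.6 to 115 CPM in BMT and 59.8 to 77.3 CPM in BM livers, 1508 to 2742 CPM in BMT and 1534 to 1708 CPM in BM of code SI, and 1376 to 2220 CPM in BMT and 882 to 1110 CPM in BM of code LI. Intestinal stem cell markers were lower for 6 of 7 genes in code SI (509 to 532 CPM in BMT and 1445 to 1701 CPM in BM). In code LI 1 was higher and 3 lower of 7, and the sums overlapped (112 to 176 CPM in BMT and 149 to 160 CPM in BM). The part of these cells in the ribosomal protein values was not tested.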

How the data were processed

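The deposited table holds raw read counts per gene, which the authors made on GRCm38.p5 with FastQC 0.11.9, STAR 2.7.0e and featureCounts 1.6.3 among the named tools, per the submitters' processing notes. Annotation release, strand setting and the treatment of reads with several matches were not found in these notes. Symbols came from GENCODE mouse release 21 (53274 of 53379 IDs matched, and the other 105 held 0.00257% of counts). Library totals were 18845483 to 25610937 counts, and floors of 3 counts cover counting error only. Counts were tested per tissue (6 libraries) with edgeR 4.0.16 in R 4.3.3, using filterByExpr, TMM factors and the quasi-likelihood test, with Benjamini-Hochberg adjustment over all genes and calls at 0.05. Differences between tissues came from 1 model of 18 libraries with the mouse number of the library names as a block, since the same numbers recur in every tissue (correlations of same-mouse deviations -0.226 to 0.382). SE values are the fold change over the square root of F. DESeq2 1.42.0 and other scalings, filters and left-out libraries were alternatives. The fits were tested on simulated counts. No library pair was a duplicate (chi-square per degree of freedom 9.86 to 187). Named genes were, per tissue, the 5 largest rises and falls among called members with a mean of at least 5 CPM, per tissue pair the 4 members of smallest p, the 5 most abundant members per length, fixed paralogue pairs and members of known role, and the 2 genes of smallest p per list. Others were named after their values were seen. Members and lists were chosen with earlier results of these data known. Promoter windows were RefSeq, GRCm38.p6.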

Additional observations from a re-analysis of the deposited data

Results flagged for a closer look

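The effect of BMT over BM on Rps27l differed between tissues by the test of the difference in 1 model of 18 libraries, with -0.9996 for liver minus code SI (edgeR adjusted p = 0.00581) and -1.01 for liver minus code LI (adjusted p = 0.00407). In liver all 3 BMT libraries were lower than all 3 BM libraries, while in code LI all 3 were higher. The effect on Rpl13a differed by -0.92 for liver minus code LI (adjusted p = 0.0262), with all 3 BMT libraries of code LI above all 3 BM libraries and overlapping groups in liver. No rule for outlying samples was applied to groups of 3 libraries. Each library was left out in turn in the comparisons within a tissue.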

How the results depend on the processing

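Of 2716 values of named genes under the alternatives, 2608 kept their side of the threshold, and 117 of these changed sign with neither value called. A further 76 lost a call, 31 gained one and 1 reversed (Rps2 of liver over code LI in BM mice, -0.70 on total counts, where it was 0.01). Of the counts of members and the ratios of sums, 182 stayed within 1.5 times or the spread and 36 moved. The 1 member called higher in liver became 0 with RLE scaling, on total counts, on lane L002 alone and with the counts of copies added, the last 2 chosen after seeing the data, and the 1 called lower became 2 on total counts. In code SI the counts of 0 higher and 1 lower became 1 and 3 without a filter and 1 and 2 with DESeq2. The 12 members higher in code SI than in code LI became 3 without a filter, and the 1 member higher in liver than in code SI became 0 on total counts. The cause was not tested. Leaving out 1 library gave 0 to 1 higher and 0 to 1 lower in liver, 0 to 2 higher and 0 to 2 lower in code SI, and 3 to 10 higher and 0 to 1 lower in code LI. Leaving out 1 mouse gave 1 to 2 members called lower for liver minus code LI, 0 to 18 higher for code SI over code LI, 70 to 74 lower for liver over code SI and 42 to 70 lower for liver over code LI. The ratios of the sums were 0.843 to 0.879 in liver, 0.783 to 0.972 in code SI and 0.972 to 1.07 in code LI. Title numbers shared by BMT and BM libraries were not used as pairs in the main fits, since the mouse numbers of the groups differ. Correlations of deviations were -0.266 to 0.473 for shared title numbers and -0.226 to 0.382 for the same mouse across tissues. These ranges do not tell whether either pairing holds. A block on the title numbers gave 1 higher and 1 lower in liver, 0 and 1 in code SI and 5 and 1 in code LI, where Rplp0 and Rpl41 were lost. Without the mouse as a block, 3 members in place of 2 were called lower for liver minus code LI. With 3 libraries per group, the low code SI library of BMT mouse 10 widens the spread of nearly all members there. Leaving out code SI BMT mouse 9 or code LI BMT mouse 10 also leaves lane L002 alone in that tissue.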
